A study of Mus musculus with 6 samples.

Results

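The genes described are p53 (Trp53) and 9 of its target genes, chosen by name, in 3 mouse endothelial cell lines. A member was taken as measured where an array probe set was annotated to its symbol alone, and 8 of the 10 members met this rule with 1 probe set each: Mdm2, Ccng1, Bbc3, Fas, Perp, Trp53inp1, Zmat3 and Eda2r, out of 19936 genes in all. Trp53 and Bax were not analysed here. The lines came from embryonic stem cells and are named in the labels by the cadherin they express: N-cadherin (line N), VE-cadherin (line VE) or both (line VE+N). All were seeded at 50000 cells per square centimetre, held confluent for 72 h and deprived of serum, with 1% albumin, for the last 18 to 20 h before harvest, and none is labelled as given a drug or DNA damage. Each line was measured on 2 arrays from separate RNA extractions, labelled as biological replicates. The labels do not describe how the replicate cultures were kept apart, and the p-values measure the spread between these extracts. With 1 line for each cadherin state, the cadherin and any other difference between the lines cannot be told apart.

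The transcription factor p53 is kept at a low level in unstressed cells, mainly by Mdm2, a ubiquitin ligase that marks it for degradation. DNA damage, oncogene activity and other stresses stabilise the protein, which then raises genes for cell cycle arrest, DNA repair, metabolism and cell death. Because p53 is controlled largely at the level of the protein, its activity is often read from the transcripts of its targets, although most of these genes also answer to other factors.

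The label check and the whole-series facts were as follows. Cdh2, the N-cadherin gene, had a mean log2 signal of 7.67 in line N, 6.69 in VE+N and 5.86 in VE, whereas Cdh5, the VE-cadherin gene, gave 7.28, 7.10 and 6.94 and no difference in it passed the test, so the VE-cadherin part of the labels was not borne out by its probe set. None of 15 endothelial markers lay among the dimmest 25% of genes in any line. In VE against N, 3 were higher and 3 lower (all genes: 8.46% and 6.99%). In VE+N, 6 were higher and 1 lower than in N (10.2% and 8.91%), and 6 higher and 0 lower than in VE (4.29% and 5.84%). Cldn5 and Vwf, named after their values were seen, rose from N to VE to VE+N (means 6.24, 9.26 and 11.68, and 5.21, 6.61 and 9.34). Others went the opposite way. Robo4, Emcn and Pecam1, also named after their values were seen, were the 3 lower in VE than in N (−0.69, −0.38 and −0.36). Robo4 was also the 1 lower in VE+N than in N (−0.42). The part of these markers in the target results was not tested. Of 7 measured haematopoietic markers, Ptprc, the common leukocyte gene, had a mean log2 signal of at most 2.85. Cd68, a lysosomal protein of macrophages named after its values were seen, was bright in every line. The mean log2 signal of Cd68 was 11.56 in N, 9.99 in VE and 8.68 in VE+N, lower in all 3 comparisons (VE minus N −1.57, VE+N minus N −2.88, VE+N minus VE −1.31, limma adjusted p = 0.000196, 5.46e-06 and 0.000844). It thus ran opposite to the order of most p53 targets given further on, and its part in those results was not tested. None of the other 6 haematopoietic markers passed in any comparison. Markers of mural cells and fibroblasts differed widely. The log2 of their summed signal over 13 genes was 10.4 and 10.5 on the N arrays. It was 11.7 and 11.9 on the VE arrays and 8.70 and 8.48 on the VE+N arrays. Such a sum is set mainly by the brightest genes, and the list did not move as 1. In VE against N, 6 were higher and 2 lower (all genes: 8.46% and 6.99%). Named after their values were seen, Col1a1 (3.40) and Dcn (3.07) were higher, and Acta2 (−1.07) and Pdgfrb (−0.55) were the 2 lower. Proliferation genes differed as well and are set beside the targets further on.

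Promoter windows from RefSeq (GRCm38.p6, 250 bases before to 50 after a transcript start) were held for 5 of the 8 measured members. They were searched for the p53 half-site consensus, a palindrome of 10 bases made of 3 purines, C, a pair of A or T, G and 3 pyrimidines, and for a full site of a pair of half-sites at most 13 bases apart with at most 3 mismatches in all and the C and G of each half-site kept. Of 32851 windows, 8.36% held an exact half-site, 15.6% a full site and 0.627% a full site with at most 1 mismatch. The windows shown are those with the best match in Ccng1, Bbc3 and Mdm2, with the whole matched site in capitals, its mismatched letters included, written 5′ to 3′ on the strand of the gene.
Ccng1: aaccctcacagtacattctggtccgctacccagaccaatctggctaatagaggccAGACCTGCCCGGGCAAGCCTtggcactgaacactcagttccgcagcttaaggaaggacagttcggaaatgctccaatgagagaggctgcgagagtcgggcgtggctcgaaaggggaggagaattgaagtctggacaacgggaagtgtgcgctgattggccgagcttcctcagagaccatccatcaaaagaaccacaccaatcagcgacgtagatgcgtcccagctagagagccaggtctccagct
Bbc3: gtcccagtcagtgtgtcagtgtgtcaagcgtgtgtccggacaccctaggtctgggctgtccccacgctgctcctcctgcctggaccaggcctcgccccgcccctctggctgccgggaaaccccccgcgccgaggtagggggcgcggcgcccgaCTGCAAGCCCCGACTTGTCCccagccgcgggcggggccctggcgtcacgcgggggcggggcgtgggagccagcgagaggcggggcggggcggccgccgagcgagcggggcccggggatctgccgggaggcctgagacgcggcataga
Mdm2: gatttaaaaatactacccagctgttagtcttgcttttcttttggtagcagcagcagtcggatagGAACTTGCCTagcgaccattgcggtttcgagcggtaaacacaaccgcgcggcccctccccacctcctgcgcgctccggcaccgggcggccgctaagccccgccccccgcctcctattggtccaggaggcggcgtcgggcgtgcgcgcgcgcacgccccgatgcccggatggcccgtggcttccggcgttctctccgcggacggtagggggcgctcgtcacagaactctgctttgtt
The Ccng1 window (chr11:40755237-40755536, minus strand) held the full site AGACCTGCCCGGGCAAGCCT with 1 mismatch and no spacer, starting 195 bases before the transcript start. The Bbc3 window (chr7:16309333-16309632, plus strand), the first of 3 windows for this gene, held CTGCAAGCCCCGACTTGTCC with 3 mismatches, starting 97 bases before the start. A second Bbc3 window held another full site with 3 mismatches. The Mdm2 window (chr10:117710709-117711008, minus strand) held the single exact half-site GAACTTGCCT, and the Fas and Eda2r windows held no match of either kind. The textbook p53 sites of Mdm2 lie in its first intron, outside this window. A match of letters is a description of the sequence, and binding was not measured.

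Taken over the arrays, most measured targets were lowest in line N, higher in VE and highest in VE+N. The means of 7 of the 8 members stood in that order, against 21.3% of all genes, the exception being Perp. In 5 members (Mdm2, Fas, Trp53inp1, Zmat3 and Eda2r) both VE arrays lay above both N arrays and below both VE+N arrays, an order without overlap that 7.6% of all genes had. The same 5 were higher in all 3 comparisons at an adjusted p below 0.05 in limma, as were 1.21% of all genes. The line means of a member spanned a median of 1.40 log2 units, against 0.252 for all genes. The pooled SD between arrays of a line had a median of 0.0893 in the members and 0.116 in all genes. All genes were taken without a filter on signal, and every member but Perp was brighter than 50% of them. The part of brightness in these comparisons was not tested.

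**Figure D1:**
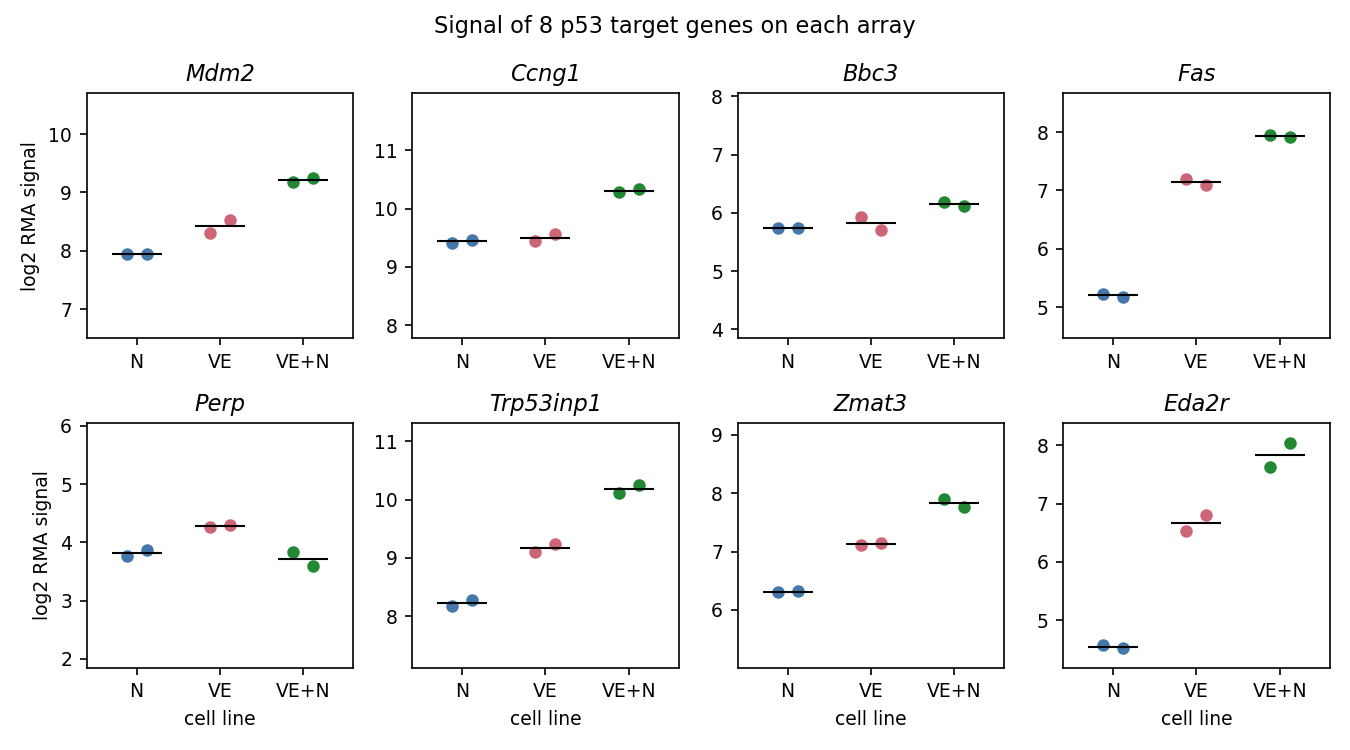
Log2 RMA signal of the 8 measured p53 target genes on each of the 6 arrays, by cell line. Points are arrays, horizontal lines are means of 2 arrays, and each panel spans the same number of log2 units, so slopes can be compared between genes but heights cannot. Signal steps up from N to VE to VE+N in Mdm2, Fas, Trp53inp1, Zmat3 and Eda2r, is raised in VE+N in Ccng1 and slightly in Bbc3, and is highest in VE in Perp.

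Mdm2, the negative regulator of p53 and also its target, gave log2 signals of 7.94 and 7.95 on the N arrays, 8.31 and 8.53 on the VE arrays and 9.18 and 9.25 on the VE+N arrays. The 3 lines did not overlap, and the VE arrays stood farthest apart (SD 0.157, n = 2). The difference of VE+N from N was 1.27 ± 0.110 log2 units (SE, limma adjusted p = 0.000135), a 2.41-fold rise. VE+N also exceeded VE, by 0.79 ± 0.110 (limma adjusted p = 0.00314). The smaller rise of VE over N, 0.48 ± 0.110 (limma adjusted p = 0.0231), did not pass without N replicate 1 (adjusted p = 0.120), N replicate 2 (0.117) or VE replicate 2 (0.150).

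Ccng1 encodes cyclin G1, which recruits a phosphatase to Mdm2. Its log2 signal was 9.42 and 9.47 on the N arrays, 9.45 and 9.56 on the VE arrays and 10.28 and 10.33 on the VE+N arrays. The N and VE arrays overlapped, and both VE+N arrays lay above all the others. VE+N exceeded N by 0.86 ± 0.0988 (SE, limma adjusted p = 0.000592) and VE by 0.80 ± 0.0988 (limma adjusted p = 0.00179). Between VE and N the difference was 0.06 with a 95% interval of −0.17 to 0.29 (limma adjusted p = 0.774). Ccng1 is the gene whose promoter window held the match with 1 mismatch shown above.

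Fas and Eda2r gave the widest ranges among the members. Fas, the receptor of the Fas ligand, which starts apoptosis through caspase-8, had log2 signals of 5.23 and 5.18 on the N arrays, 7.20 and 7.09 on the VE arrays and 7.95 and 7.92 on the VE+N arrays. The N arrays were far below the rest and no lines overlapped. Fas rose by 1.94 ± 0.0984 (SE) from N to VE, 3.85-fold (limma adjusted p = 1.27e-05), and by 2.73 ± 0.0984 from N to VE+N, 6.65-fold (limma adjusted p = 1.30e-06). The step from VE to VE+N was 0.79 ± 0.0984 (limma adjusted p = 0.00187). All 3 calls held in each of 15 alternative analyses.

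Eda2r, a receptor of the TNF receptor family that binds a form of ectodysplasin, gave 4.58 and 4.52 on the N arrays, 6.52 and 6.81 on the VE arrays and 7.62 and 8.05 on the VE+N arrays. It again had no overlap between lines, although its VE+N arrays differed more from each other (SD 0.300) than those of any other member. Eda2r rose by 2.12 ± 0.160 (SE) in VE against N, 4.35-fold (limma adjusted p = 8.90e-05), and by 3.29 ± 0.160 in VE+N against N, 9.76-fold (limma adjusted p = 5.59e-06). VE+N exceeded VE by 1.17 ± 0.160 (limma adjusted p = 0.00292). The absolute VE+N minus N difference was larger than that of 99.6% of all genes for Eda2r and of 99.4% for Fas.

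Trp53inp1 encodes a stress-induced protein that acts with p53 and takes part in autophagy. Its log2 signal was 8.18 and 8.28 on the N arrays, 9.10 and 9.23 on the VE arrays and 10.11 and 10.25 on the VE+N arrays, in nearly equal steps. It rose by 0.93 ± 0.108 (SE) from N to VE (limma adjusted p = 0.000806) and by 1.95 ± 0.108 from N to VE+N, 3.87-fold (limma adjusted p = 1.12e-05). The step from VE to VE+N was 1.02 ± 0.108, 2.02-fold (limma adjusted p = 0.000878).

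Zmat3 encodes a zinc finger protein that binds RNA. It gave 6.3 and 6.32 on the N arrays, 7.12 and 7.15 on the VE arrays and 7.91 and 7.76 on the VE+N arrays, again without overlap. It rose by 0.82 ± 0.101 (SE) from N to VE (limma adjusted p = 0.0011) and by 1.52 ± 0.101 from N to VE+N, 2.87-fold (limma adjusted p = 3.06e-05). VE+N exceeded VE by 0.70 ± 0.101 (limma adjusted p = 0.00386).

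Bbc3 and Perp are both linked to p53-dependent cell death, and their line means spanned less than those of the other measured members, by 0.41 and 0.56 log2 units. Bbc3 encodes PUMA, a BCL2 family protein that triggers the mitochondrial route of apoptosis, and gave 5.74 and 5.74 on the N arrays, 5.93 and 5.71 on the VE arrays and 6.18 and 6.12 on the VE+N arrays. Its VE arrays lay on either side of the N arrays, and the VE+N arrays were above all others. The difference of VE+N from N was 0.41 ± 0.108 (SE, limma adjusted p = 0.0324), and that call was lost without any 1 of the 4 arrays compared (adjusted p from 0.0740 to 0.153), with median centring (0.0544) and with repeated quantile normalization (0.0607). VE+N minus VE was 0.33 ± 0.108 (limma adjusted p = 0.103). VE minus N was 0.08 ± 0.108 (limma adjusted p = 0.726) and turned to −0.03 without VE replicate 1.

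Perp encodes a membrane protein of desmosomes in epithelia that is also a p53 effector. It gave 3.76 and 3.87 on the N arrays, 4.26 and 4.29 on the VE arrays and 3.84 and 3.60 on the VE+N arrays, so that VE was above the other lines, which overlapped. All these signals were low: Perp was brighter than only 27.0% of genes and is dropped by a filter on the dimmest 50%. It was higher in VE than in N by 0.46 ± 0.114 (SE, limma adjusted p = 0.0305) and lower in VE+N than in VE by a log2 difference of −0.56 ± 0.114 (limma adjusted p = 0.0192). The first call was lost without any 1 of the 4 arrays compared (adjusted p from 0.0962 to 0.183), and the second without VE replicate 1 (0.105), VE replicate 2 (0.126) or VE+N replicate 2 (0.0810). VE+N minus N was −0.09 ± 0.114 (limma adjusted p = 0.657) and 0.03 without VE+N replicate 2. Beside Perp, 3 of 13 epithelial markers were higher in VE than in N (Pkp1, Ppl and Krt19) and 0 lower, against 8.46% and 6.99% of all genes. The other 10, Epcam and Cdh1 among them, did not pass. In VE+N against VE, 0 were higher and 2 lower (Pkp1 and Ppl), against 4.29% and 5.84% of all genes, and 11 did not pass. The part of these genes in the Perp result was not tested.

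Counted by comparison, 6 of the 8 members were higher and 0 lower in VE than in N, where 15.4% of all genes passed and 8.46% were higher. In VE+N against N, 7 were higher and 0 lower, where 19.1% of all genes passed and 10.2% were higher. In VE+N against VE, 6 were higher and 1 (Perp) lower, where 10.1% of all genes passed, 4.29% being higher and 5.84% lower. Members higher over 2-fold numbered 2 (Fas and Eda2r), 5 (all but Ccng1, Bbc3 and Perp) and 2 (Trp53inp1 and Eda2r) in the same order of comparisons, against 2.58%, 2.45% and 0.547% of all genes. The median difference of the members was 0.65, 1.40 and 0.79 log2 units, and that of all genes −0.02, −0.0044 and 0.03. The comparisons share lines, so their counts are not independent. By the methods' analysis of variance, 4, 6 and 2 members passed after Benjamini-Hochberg adjustment, the last being Ccng1 and Fas, where 6.4%, 9.36% and 1.56% of all genes passed. At the methods' own threshold, an unadjusted p below 0.05 with a change over 2-fold, 2, 5 and 2 members passed, where 3.77%, 4.56% and 2.47% of all genes did.

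**Figure D2:**
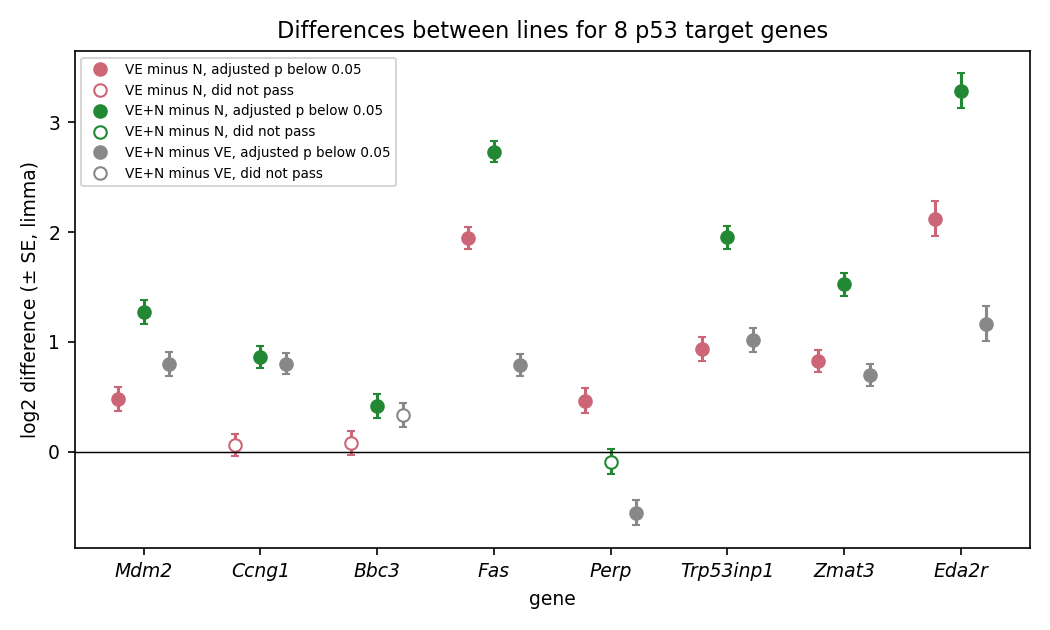
Log2 differences between lines for the 8 measured p53 target genes, with SE from limma over 6 arrays. Filled points passed an adjusted p of 0.05 and open points did not. VE+N minus N (green) is the largest of the 3 differences in each gene shown but Perp, and reaches 3.29 in Eda2r. Ccng1 and Bbc3 have VE minus N values close to 0.

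Further p53 targets were taken from a list of 38 genes, of which 36 were measured. Cdkn1a and Gdf15 were not analysed here. In VE against N, 10 rose and 3 fell (27.8% and 8.33%, against 8.46% and 6.99% of all genes), with a list median of 0.13. In VE+N against N, 17 rose and 4 fell (47.2% and 11.1%, against 10.2% and 8.91%), with a median of 0.46. In VE+N against VE, 10 rose and 2 fell (27.8% and 5.56%, against 4.29% and 5.84%), with a median of 0.25. The last count of 12 fell to 5 without VE replicate 1 or VE replicate 2 and to 0 in the methods' analysis of variance, and the first count of 13 became 7 in the latter.

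Among these targets, Ak1, an adenylate kinase, showed the widest range, with log2 signals of 5.76 and 5.33 on the N arrays, 7.34 and 7.35 on the VE arrays and 8.96 and 8.70 on the VE+N arrays. It rose by 3.28 ± 0.157 (SE) from N to VE+N (limma adjusted p = 5.46e-06), by 1.80 from N to VE and by 1.48 from VE to VE+N. Pltp, which transfers phospholipids between lipoproteins, rose by 2.49 ± 0.112 from N to VE+N (limma adjusted p = 4.04e-06), by 1.91 from N to VE and by 0.58 from VE to VE+N. Btg2, an antiproliferative gene, gave 7.77 and 8.0 on the N arrays, 8.93 and 8.91 on the VE arrays and 10.14 and 10.05 on the VE+N arrays, a rise of 2.21 ± 0.112 from N to VE+N (limma adjusted p = 7.06e-06) and of 1.17 from VE to VE+N. Sesn1, a stress-induced inhibitor of mTORC1 signalling, rose by 1.88 ± 0.129 from N to VE+N (limma adjusted p = 3.64e-05) and by 0.97 from VE to VE+N. Like the 5 members named above, Ak1, Pltp, Btg2 and Sesn1 stepped up from N to VE to VE+N with no overlap between lines. Of all genes, 7.6% had this order. These targets were named for the largest differences of VE+N from N in the list, so a comparison with that share carries no weight.

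Dcxr, a carbonyl reductase, was higher in VE+N than in VE by 1.00 ± 0.176 (limma adjusted p = 0.00951), a call lost without VE replicate 1 or VE replicate 2. Ckap2, a spindle protein that also follows the cell cycle, rose by 1.06 ± 0.0969 in VE against N (limma adjusted p = 0.000234). The list was not uniform. Trp53i11 fell by 1.36 ± 0.0965 in VE (limma adjusted p = 6.58e-05) and was also lower in VE+N, at −1.65 ± 0.0965 from N (limma adjusted p = 1.47e-05). Gadd45a, a DNA damage and growth arrest gene named after its values were seen, was lower in VE+N than in N by a log2 difference of −0.65 and than in VE by −0.64. Pmaip1 encodes the pro-apoptotic protein NOXA and was also named after its values were seen. It had line means of 4.26 in N, 4.07 in VE and 4.21 in VE+N, and none of its differences passed. These levels were low, below 5.54, the cut of the dimmest 50% of genes.

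Of the regulators and cofactors of p53, 25 of 26 listed genes were measured. In VE against N, 4 rose and 0 fell (16% and 0%, against 8.46% and 6.99% of all genes), with a median of −0.02. Against N, line VE+N had 6 that rose and 2 that fell (24% and 8%, against 10.2% and 8.91%), with a median of 0.07. Against VE, it had 4 that rose and 3 that fell (16% and 12%, against 4.29% and 5.84%), with a median of 0.06. Leaving out 1 array took the first count of 4 down to 1 (without VE replicate 2) or 2 (without N replicate 2), the second of 8 to 5 or 4 (without N replicate 1 or 2) and the third of 7 to 3 or 4 (without VE replicate 1 or 2) and to 4 (without VE+N replicate 2). Sirt1, a deacetylase of p53, gave 6.77 and 6.81 on the N arrays, 7.55 and 7.63 on the VE arrays and 8.18 and 8.41 on the VE+N arrays. It rose by 0.79 ± 0.112 (SE) from N to VE (limma adjusted p = 0.00227) and by 1.50 ± 0.112 from N to VE+N (limma adjusted p = 6.04e-05). From VE to VE+N it rose by 0.71, a call lost without VE replicate 1. Mdm4, the partner of Mdm2 that inhibits p53, rose by 0.80 ± 0.139 from N to VE+N (limma adjusted p = 0.005).

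Cdkn2a, whose locus encodes the Mdm2 inhibitor ARF and the CDK inhibitor INK4A, took another course, with log2 signals of 7.63 and 7.56 on the N arrays, 8.19 and 8.18 on the VE arrays and 6.84 and 6.58 on the VE+N arrays. It was highest in VE and lowest in VE+N, with no overlap. It rose by 0.59 ± 0.115 from N to VE (limma adjusted p = 0.0104), which was lost without N replicate 2, VE replicate 1 or VE replicate 2. It was lower in VE+N than in VE by a log2 difference of −1.48 ± 0.115 (limma adjusted p = 0.000193) and than in N by −0.88 ± 0.115 (limma adjusted p = 0.00116). The gene's 2 products share exons and cannot be told apart by 1 probe set here. The checkpoint kinase genes Chek2 and Chek1 rose in VE against N by 0.92 ± 0.152 and 0.63 ± 0.157 (limma adjusted p = 0.00476 and 0.0320). The Chek2 call was lost without VE replicate 2. The Chek1 call was lost without any 1 array other than VE replicate 1, and its value was 0.40 without VE replicate 2. Chek1 was lower in VE+N than in VE, at −1.09 ± 0.157 (limma adjusted p = 0.00367). Twist1, a mesenchymal transcription factor that can restrain p53, was lower in VE+N than in VE by −2.48 ± 0.383 (limma adjusted p = 0.00516) and than in N by −1.42 ± 0.383 (limma adjusted p = 0.0351). The first call was lost without VE replicate 2, and the second without any 1 of the N or VE arrays. The VE+N arrays differed in Twist1, so that its difference from N was −2.14 without VE+N replicate 1 and −0.71 without VE+N replicate 2, both past the threshold.

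A further list, called partners here, held BCL2 family genes, death receptor partners and genes around ectodysplasin such as Eda, Edar and Edaradd. Of its 26 genes, 24 were measured. In VE against N, 1 rose and 6 fell (4.17% and 25%, against 8.46% and 6.99% of all genes), with a median of −0.12. Line VE+N had 2 that rose and 6 that fell against N (8.33% and 25%, against 10.2% and 8.91%), with a median of −0.12. Against VE, it had 1 that rose and 0 that fell (4.17% and 0%, against 4.29% and 5.84%), with a median of 0.04. The first count of 7 was 3 without any 1 of the N or VE arrays, the second of 8 was 5 without N replicate 1 or N replicate 2, and the third of 1 was 0 without either N array, either VE array or VE+N replicate 2. Bcl2l11, which encodes the pro-apoptotic protein BIM, gave 9.31 and 9.35 on the N arrays, 7.67 and 7.66 on the VE arrays and 7.68 and 7.78 on the VE+N arrays. N was the high line and the other lines lay together. It fell by 1.66 ± 0.0976 (SE) in VE (limma adjusted p = 2.46e-05) and by 1.60 ± 0.0976 in VE+N (limma adjusted p = 1.89e-05).

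The survival gene Bcl2 fell by 0.53 ± 0.148 in VE against N (limma adjusted p = 0.0478), a call lost without any 1 of the 4 arrays compared, and by 0.88 ± 0.148 in VE+N against N (limma adjusted p = 0.00427). Bok, another BCL2 family member, fell by 0.88 ± 0.108 in VE+N against N (limma adjusted p = 0.000844), and Bid, which links death receptors to mitochondria, by 0.64 ± 0.0979 in VE against N (limma adjusted p = 0.00346). Edaradd, the adaptor of the related receptor Edar, fell by 0.99 ± 0.180 in VE and by 1.12 ± 0.180 in VE+N against N (limma adjusted p = 0.00753 and 0.00346). Diablo, which relieves caspase inhibition, was the gene that rose in VE+N against VE, by 0.48 ± 0.108 (limma adjusted p = 0.0291), a call lost without any 1 of the 6 arrays (adjusted p from 0.0518 to 0.181). Of the receptors' ligands, both named after their values were seen, Fasl had line means between 2.94 and 3.00 and Eda between 4.17 and 4.29. No difference in either passed, and both signals were low. Fasl lay below 3.82, the cut of the dimmest 25% of genes, and Eda below 5.54, that of the dimmest 50%.

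**Figure D3:**
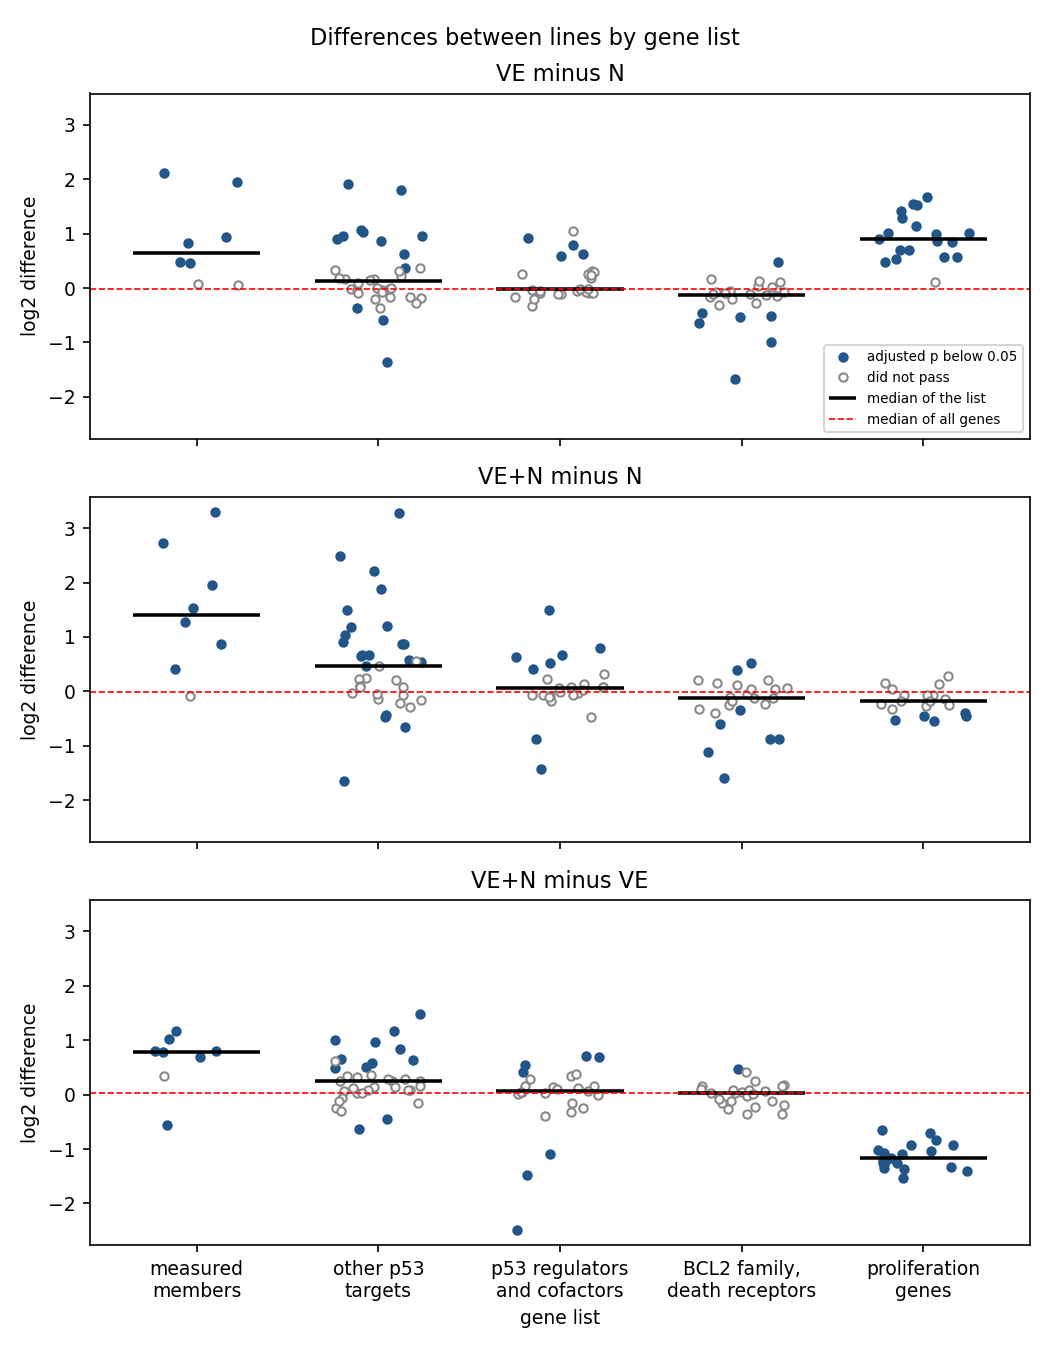
Log2 differences for each measured gene of 5 lists in the 3 comparisons. Filled points passed a limma adjusted p of 0.05, open points did not, black lines are list medians and the red dashed line is the median of all genes. The members and the other p53 targets lie mostly above the dashed line in all 3 panels, and proliferation genes lie above it in VE minus N and below it in VE+N minus VE.

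Since p53 restrains the cell cycle, 20 proliferation genes, 19 of them measured, were set beside the targets. In VE against N, 18 rose and 0 fell (94.7% rose, against 8.46% of all genes, median 0.89), among them Mki67 by 1.68 ± 0.128 (SE), Ccna2 by 1.55 ± 0.139, Kif11 by 1.53 ± 0.114 and Top2a by 1.42 ± 0.0956, with limma adjusted p-values from 5.02e-05 to 0.000219 (Top2a by 0.94 as the mean of its probe sets). In VE+N against VE, 0 rose and 19 fell (100% fell, against 5.84% of all genes, median −1.17), among them Mki67 at −1.54, Ccna2 at −1.40, Top2a at −1.37 (−0.84 as the mean of its probe sets) and Aurkb at −1.34. In VE+N against N, 0 rose and 5 fell (26.3% fell, against 8.91% of all genes, median −0.17), among them Mcm3 at −0.54, Mcm6 at −0.53, Ccnb2 at −0.46 and Tyms at −0.44, and each of these 4 calls was lost without N replicate 1. The Mcm6 and Ccnb2 calls were also lost without any other array but VE+N replicate 1, and the Tyms call without N replicate 2 or either VE+N array. Without VE+N replicate 2 the Mcm6 and Ccnb2 differences were −0.35 and −0.30. Line VE+N thus had the highest signal of 7 of the 8 targets and less proliferation signal than VE, while VE had more proliferation signal and more of 6 targets than N. The mural and fibroblast markers also moved in the same pairs of lines. In VE against N, 6 of 13 were higher and 2 lower (46.2% and 15.4%, against 8.46% and 6.99% of all genes). In VE+N against N, 0 were higher and 7 lower (0% and 53.8%, against 10.2% and 8.91%). In VE+N against VE, 0 were higher and 9 lower (0% and 69.2%, against 4.29% and 5.84%). The part of either list in the p53 target results was not tested.

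Genes with the profile most like those of the 2 members with the widest range were sought over the 6 arrays, among 1319 genes whose line means spanned at least 1 log2 unit. For Eda2r the 5 highest Pearson correlations were with Sned1 (0.999), Ptprb (0.999), Abhd2 (0.998), Plpp3 (0.998) and Calcrl (0.998). For Fas they were with Sirpa (0.999), Ston2 (0.999), Fam124a (0.999), Stat6 (0.999) and Dph6 (0.999). None of these 10 genes was on a p53 list used here. Those lists are short beside the 1319 candidates, so their absence carries little information. The 6 arrays form 3 pairs, so these values describe how alike the order and spacing of 3 lines are.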

How the data were processed

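The authors deposited log2 values, made with the RMA algorithm (background correction, quantile normalization and a summary per probe set) in Partek 6.3, per the submitters' processing notes, from 150 ng of RNA per array on Affymetrix Mouse Gene 1.0 ST arrays. The log2 scale was read from the values; the build behind the probe sets is not given in the sources used here. Of 35556 probe sets, 21789 carried 1 gene symbol, updated through RefSeq; the brightest per gene was kept (19936 genes), with no filter on signal. The number of arrays, 2 a line, limits the precision.

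Line means over all 6 arrays were compared with limma 3.58.1 in R 4.3.3 (3 residual and 4.89 prior degrees of freedom), Benjamini-Hochberg adjusted over all genes and called at adjusted p below 0.05. Values after ± are SE or, where stated, SD. Members, lists and tests were chosen with earlier results of these data known, so adjusted p-values and counts do not support the choice. From each list the 4 called genes with the largest change in each comparison are named, marker lists are given as counts, and other names are said to be chosen after their values were seen. The test was tried on simulated data of VE minus N over 19936 genes (5 simulations of 200 changed genes). It recovered 58.4% of rises of 1 log2 unit, 54% of falls of 1 and 2% of rises of 0.5. Of all its calls there, 1.68% were false. The 15 alternatives were 4-array fits, a replicate block, a trended robust prior, median centring, repeated quantile normalization, 2 filters on dim genes, the mean of probe sets, the methods' analysis of variance, and each array left out.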

Additional observations from a re-analysis of the deposited data

How the results depend on the processing

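The 24 differences of members (8 genes, 3 comparisons) were recomputed under up to 15 alternatives, 357 values in all: 329 kept their direction and their side of the threshold, 24 lost the call, 1 gained it and 3 changed sign. The sign changes were in differences that did not pass: Bbc3 in VE minus N at −0.0134 with quantile normalization again and from −0.0273 (without VE replicate 1) to 0.184 (without VE replicate 2), and Perp in VE+N minus N from −0.215 (without VE+N replicate 1) to 0.0257 (without VE+N replicate 2). The methods' analysis of variance estimates each gene's spread from 3 degrees of freedom alone. It left 2 members called in VE+N minus VE instead of 7. In the 3 comparisons it called 1276, 1867 and 311 genes instead of 3079, 3802 and 2020. It also left 7 and 0 other p53 targets in VE minus N and VE+N minus VE, 1, 2 and 0 regulators and 3, 3 and 0 partners. Leaving out 1 array gave 4 to 6, 6 to 7 and 6 to 7 members, 1688 to 3356, 2243 to 3800 and 966 to 2049 genes, 10 to 14, 17 to 21 and 5 to 11 other targets, 1 to 5, 4 to 7 and 3 to 6 regulators and 3 to 7, 5 to 7 and 0 to 1 partners. Regulators called in VE minus N were 7 with a trended robust prior and 8 without the dimmest 50% of genes. Partners called in VE+N minus VE (1) were 0 with 4 arrays, 3 with the trended prior, 2 without the dimmest 25% and 4 without the dimmest 50% of genes. The cause of these shifts was not tested. The replicate numbers did not pair the arrays (correlations of same-numbered deviations −0.00504, 0.123 and 0.0689). The fit with a replicate block called 6, 7 and 7 members, as before, 3056, 3864 and 2055 genes, and 2 partners in VE+N minus VE. Of 673 values for the other named genes, 600 kept the call, 73 lost it and 0 changed sign. In the simulated data, 2% of rises of 0.5 log2 units were called. That simulation changed 200 genes, whereas 3079 passed in VE minus N, so its share need not hold for the real data. Mdm2 and Perp, at 0.48 and 0.46 in VE minus N, passed in the main fit.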
